A study of Mus musculus with 12 samples.

Results

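The histone deacetylase (HDAC) genes Hdac2 to Hdac11 were described across 2 lines of mouse cells that were derived from embryonic fibroblasts (MEF). The genes were chosen by name, 10 of the 37310 genes in the count table, and the family was picked out because Hdac11 differed between the untreated lines. All 10 passed the filter on low counts, which left 16630 genes for testing. RNA was sequenced in 12 libraries in 4 groups of 3. The HPg group is a line in which expression of HP1γ, the heterochromatin protein encoded by Cbx3, was restored, and the group called KO here is a line labelled as a knockout of HP1γ. Each line was grown in medium with fetal calf serum and was either untreated or given 100 nM PMA in DMSO for 30 min (HPg PMA and KO PMA). PMA (phorbol 12-myristate 13-acetate) activates protein kinase C enzymes by standing in for diacylglycerol. Whether untreated cells received DMSO is not stated in the labels. The series calls the 3 libraries of a group biological replicates, but 1 line stands for each genotype, so line and genotype cannot be told apart.

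Libraries held between 111458145 and 159929347 counts. Levels are given as CPM (a gene's share of a library's counts, in parts per 1e6, scaled with TMM factors), and group values are means ± SD of 3 libraries. The RNA of the targeted gene did not pass the test between the lines. Cbx3 stood at 38.7 ± 2.45 CPM in HPg, 38.6 ± 4.66 in HPg PMA, 36.5 ± 2.20 in KO and 31.8 ± 4.37 in KO PMA, a log2 difference of -0.28 between the treated lines (edgeR quasi-likelihood test, adjusted p = 0.269). This sum over the gene therefore did not check the knockout label, and every direction below is drawn between libraries carrying that label and the others. Of 10 fibroblast markers, 9 could be tested, and the list summed to between 9200 and 16300 CPM in every library. Most of that sum was Col1a1, Vim, Fn1 and Col3a1. Pdgfrb ranged from 279.6 to 382.6 CPM over the libraries and Pdgfra from 75.5 to 126.9. The remaining listed markers were low: Col1a2 reached at most 18.75 CPM, Dcn 15.88 and Lum 0.409, and Thy1 had 17 counts in total.

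Histone deacetylases remove acetyl groups from lysines of histones and other proteins, and acetylated histones mark open, transcribed chromatin. Class I enzymes (Hdac2, Hdac3, Hdac8) are mainly nuclear, and Hdac2 and Hdac3 work inside large corepressor complexes. Class IIa enzymes (Hdac4, Hdac5, Hdac7, Hdac9) have weak activity of their own and bind transcription factors such as MEF2, and kinases move them out of the nucleus by phosphorylating sites that 14-3-3 proteins then hold. Class IIb holds Hdac6, a tubulin deacetylase of the cytoplasm, and Hdac10, a polyamine deacetylase. Hdac11 is the sole class IV member and removes long fatty acyl groups from lysine.

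The members whose RNA differed most between the untreated lines, Hdac11 and Hdac9, have unlike sequences before their starts, which are shown for that reason. RefSeq promoters (GRCm38.p6) were matched for 8 of the 10 members at 12 starts. Capitals mark CG dinucleotides, the bases that mammalian DNA methylation acts on. The windows run 5′ to 3′ on the gene's strand: the 100 bases before the first base that GENCODE annotates as Hdac11 (chr6:91156565-91156664, plus strand), which form the far end of the 250 bases before its RefSeq start, the 250 bases before the upstream Hdac9 start (chr12:34917096-34917345, minus strand) and the 250 bases before an internal Hdac9 start (chr12:34528890-34529139, minus strand).
Hdac11: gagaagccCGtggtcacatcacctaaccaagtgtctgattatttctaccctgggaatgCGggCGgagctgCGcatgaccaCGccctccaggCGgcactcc
Hdac9 upstream: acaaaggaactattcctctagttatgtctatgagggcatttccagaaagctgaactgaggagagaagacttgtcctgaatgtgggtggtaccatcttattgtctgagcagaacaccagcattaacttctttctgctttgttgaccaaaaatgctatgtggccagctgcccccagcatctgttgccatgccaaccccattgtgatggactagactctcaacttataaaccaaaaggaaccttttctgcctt
Hdac9 internal: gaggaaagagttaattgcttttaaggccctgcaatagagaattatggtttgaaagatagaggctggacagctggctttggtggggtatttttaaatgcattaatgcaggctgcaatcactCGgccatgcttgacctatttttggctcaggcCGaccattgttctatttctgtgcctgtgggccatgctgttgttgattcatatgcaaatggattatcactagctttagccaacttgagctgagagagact
The printed Hdac11 stretch held 6 CG in 100 bases. The full 250 bases before the RefSeq start held 17, more than 76.5% of the 32851 promoters of that length, whose median was 6. The Hdac9 windows held 0 and 2. The AP-1 motif TGACTCA, searched on both strands, was in 4.46% of all promoters and in no window of the 8 members matched. The CRE motif TGACGTCA was in 1.55% of all and CACGTG in 6.02%, and both likewise in no window of these members. The MEF2 motif YTAWWWWTAR (Y is C or T, W is A or T, R is A or G) was in 2.92% of all promoters. Among these members it occurred in the Hdac5 window only. CCAAT was in 33.8% of all promoters. It occurred once in the 250 bases before the Hdac11 RefSeq start, just past the printed stretch, which held none. The windows of Hdac4, Hdac5, Hdac6 and Hdac8 held 2 each. These matches describe letters in the windows and were not tested against the RNA.

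Levels of the 10 genes were compared per kb of annotated exon, since longer transcripts collect more reads. Hdac3, the catalytic subunit of NCoR and SMRT, was highest with a mean of 32.4 CPM per kb over the 12 libraries, and Hdac2 followed with 29.3. Hdac5 averaged 19.1 and Hdac7 16.0 CPM per kb. Below them came Hdac4 with 7.81, Hdac8 with 7.72 and Hdac10 with 7.50 CPM per kb. Hdac6 averaged 4.35 CPM per kb. At the low end were Hdac9 with 0.978 CPM per kb and Hdac11 with 0.158. Hdac2 and Hdac3 overlapped over libraries, as did Hdac5 and Hdac7, and also Hdac4, Hdac8 and Hdac10, so their order within each set was not beyond the spread. Hdac5 also reached 30.1 CPM per kb in KO PMA library 1, above the lowest libraries of Hdac2 (24.3) and Hdac3 (27.9). Hdac6, with at most 5.53 CPM per kb, lay below every library of those 3 genes. Hdac9 ranged from 0.618 to 1.44 CPM per kb and Hdac11 from 0.0252 to 0.312, with no library shared.

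**Figure D1:**
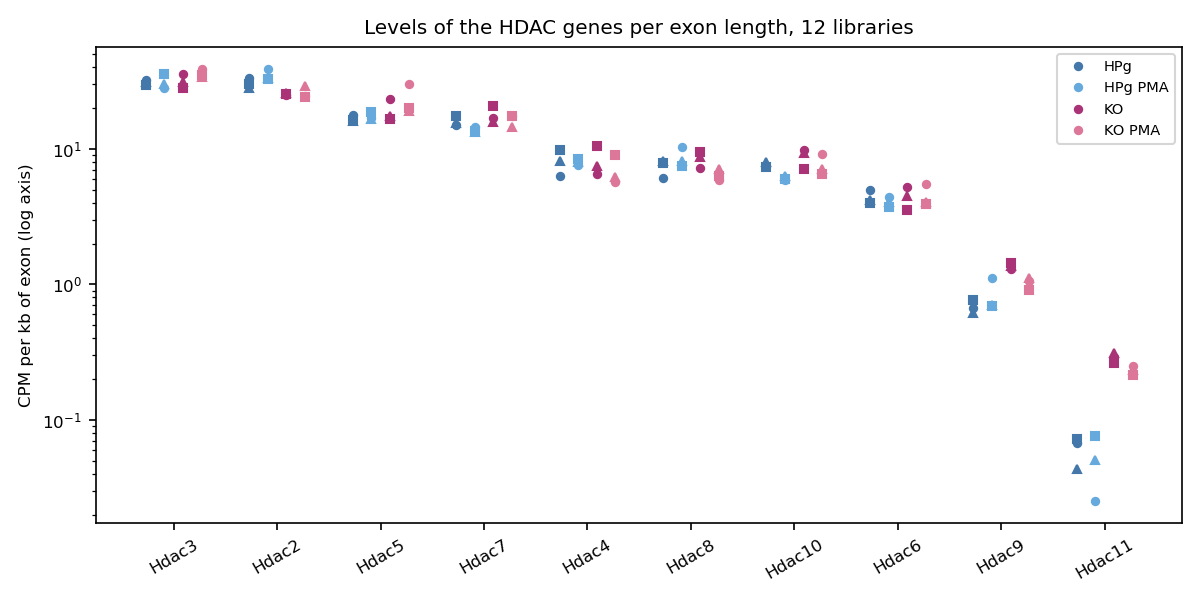
CPM per kb of annotated exon (log axis) for the 10 HDAC genes in order of their mean, with 1 point per library, coloured by group and shaped by library number (circle 1, square 2, triangle 3). Hdac3 and Hdac2 lie highest, and the Hdac11 points fall into a lower set of 6 HPg libraries and a higher set of 6 KO libraries.

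Hdac11 was the family member that differed most between the lines, by more than 4-fold, with and without PMA. The untreated HPg libraries had 0.261, 0.277 and 0.167 CPM (0.235 ± 0.0593), and the untreated KO libraries 1.12, 1.01 and 1.20 CPM (1.11 ± 0.0953). Without PMA the lines did not overlap, and the fitted log2 difference was 2.24 (SE 0.376), a 4.73-fold higher level in KO. That contrast is the one by which the family was chosen, so it is given as a description. In bulk RNA, fewer cells expressing a gene and less of it per cell cannot be told apart.

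The PMA-treated libraries are of the same lines, and the family was chosen with earlier results of these data known. The treated contrast is therefore no independent check of the untreated one. With PMA, Hdac11 read 0.0970, 0.292 and 0.196 CPM in HPg (0.195 ± 0.0974) and 0.960, 0.829 and 0.892 CPM in KO (0.893 ± 0.0655). Every KO PMA library lay above every HPg PMA library. The fitted log2 difference was 2.19 (SE 0.377, 95% interval 1.37 to 3.01), or 4.56-fold, with adjusted p = 0.0131 by edgeR. This put Hdac11 at rank 140 of 16630 genes by size of difference. The counts behind it were low, 15, 46 and 24 in HPg PMA and 110, 110 and 97 in KO PMA. Leaving out HPg PMA library 1, HPg PMA library 3 or KO PMA library 1 ended the call (adjusted p 0.0511, 0.0735 and 0.0597), with log2 differences of 1.85, 2.19 and 2.13.

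PMA itself did not detectably change Hdac11 in either line. The log2 difference of treated from untreated was -0.26 in HPg (95% interval -1.09 to 0.56, adjusted p = 0.797), and these groups overlapped. In KO it was -0.32 (95% interval -1.08 to 0.45, adjusted p = 0.769), where all 3 treated libraries lay below all 3 untreated ones. The difference between these responses was -0.05 (SE 0.53, adjusted p = 1). Per the GENCODE annotation, Hdac11 shares 96 exon bases with the antisense gene Gm14573, which had 0 counts in all 12 libraries, and 594 with Gm44002, which was not analysed here. The libraries were directional per the labels, but they do not say which strand setting the counting used.

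**Figure D2:**
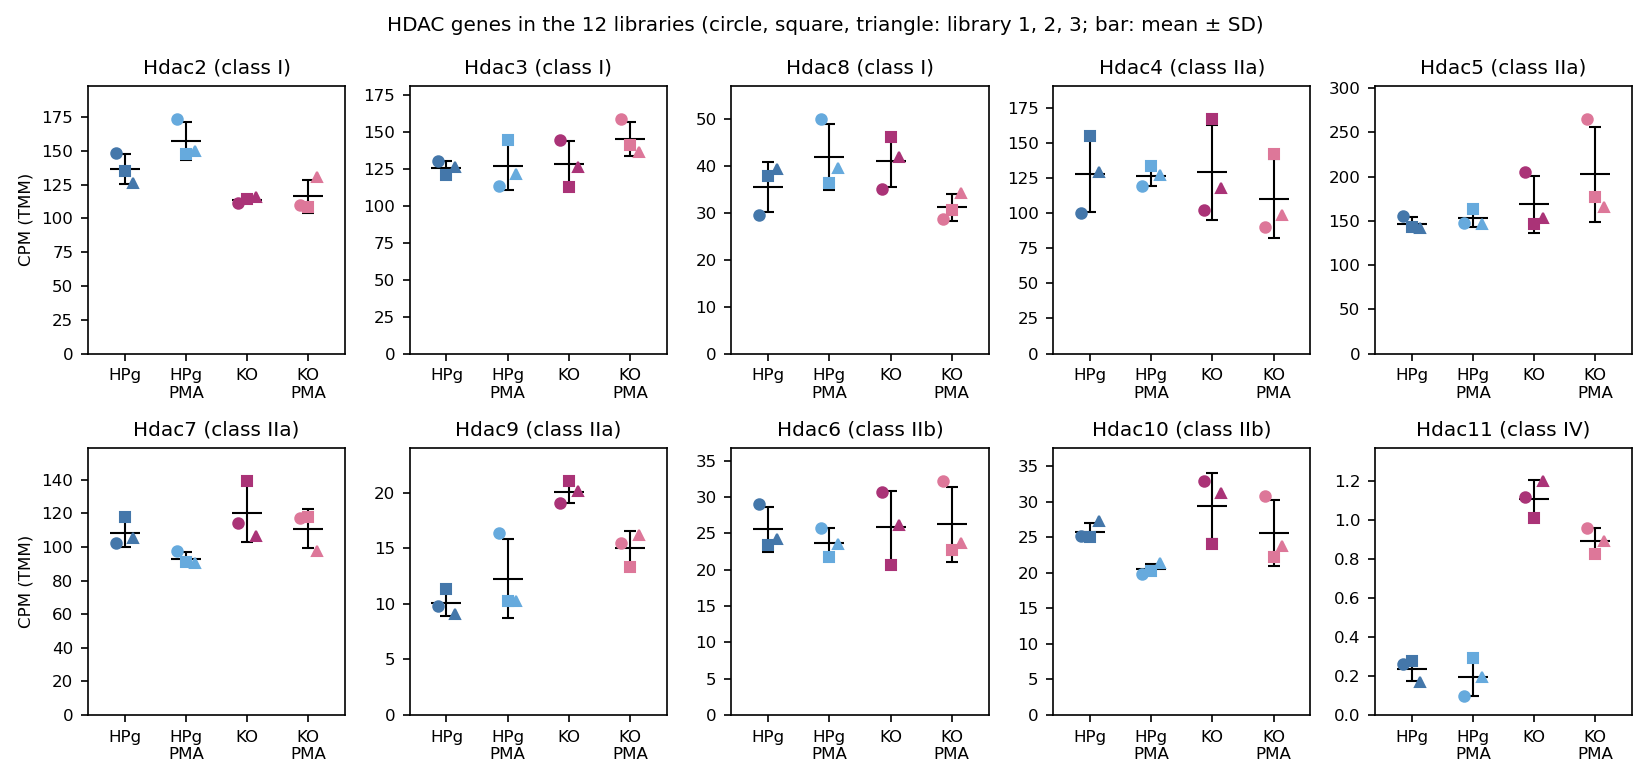
TMM-scaled CPM (linear axis from 0, own scale in each panel) of the 10 HDAC genes by group, with 1 point per library and bars for mean ± SD over 3 libraries. Hdac11 separates the lines with and without PMA, Hdac9 separates them without PMA, and Hdac5 shows 1 high library of 264.6 CPM in KO PMA.

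Hdac9, a class IIa member that binds MEF2, differed between the untreated lines, while the treated lines overlapped. Without PMA it stood at 9.76, 11.3 and 9.06 CPM in HPg (10.0 ± 1.15) and at 19.1, 21.1 and 20.1 CPM in KO (20.1 ± 0.998), with a fitted log2 difference of 1.00 (SE 0.18), again given as a description. With PMA it was 16.4, 10.2 and 10.3 CPM in HPg (12.3 ± 3.54) and 15.5, 13.3 and 16.2 CPM in KO (15.0 ± 1.53). HPg PMA library 1 lay among the KO PMA libraries. The treated lines differed by a log2 value of 0.29 (95% interval -0.10 to 0.68, adjusted p = 0.425). All KO libraries with PMA were lower than those without, by a log2 difference of -0.42 (SE 0.18, adjusted p = 0.264), which did not pass the threshold. In HPg the PMA difference was 0.29 (adjusted p = 0.456). The responses of the lines differed by -0.71 (SE 0.25, unadjusted p = 0.0158), and this did not pass the adjustment over all genes (adjusted p = 1, or 0.629 with the library number as a term of the fit, called the replicate block below).

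Across the family, 2 of 10 members, Hdac9 and Hdac11, passed the threshold (adjusted p under 0.05) between the untreated lines, beside 1.32% of all genes. The choice of the family used this contrast, so its counts are a description and no evidence about the family. The untreated lines did not overlap for 3 of 10 members, beside 18.5% of all genes, and the block called the same 2, beside 12.5% of all genes. Without library 1 or 3 of either line, or with only these 2 groups fitted, neither was called, and without KO library 2 Hdac11 alone was. With PMA, 1 of 10 passed, Hdac11, beside 2.47% of all genes. With the replicate block, 3 of 10 passed with PMA, beside 18.6% of all genes, as Hdac2 and Hdac8 joined in the opposite direction, and DESeq2 called Hdac2 and Hdac11. The 2 lines with PMA did not overlap for 6 of 10 members, beside 25.0% of all genes. The median log2 difference over the 10 members was 0.23 with PMA, beside 0.01 over all genes.

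**Figure D3:**
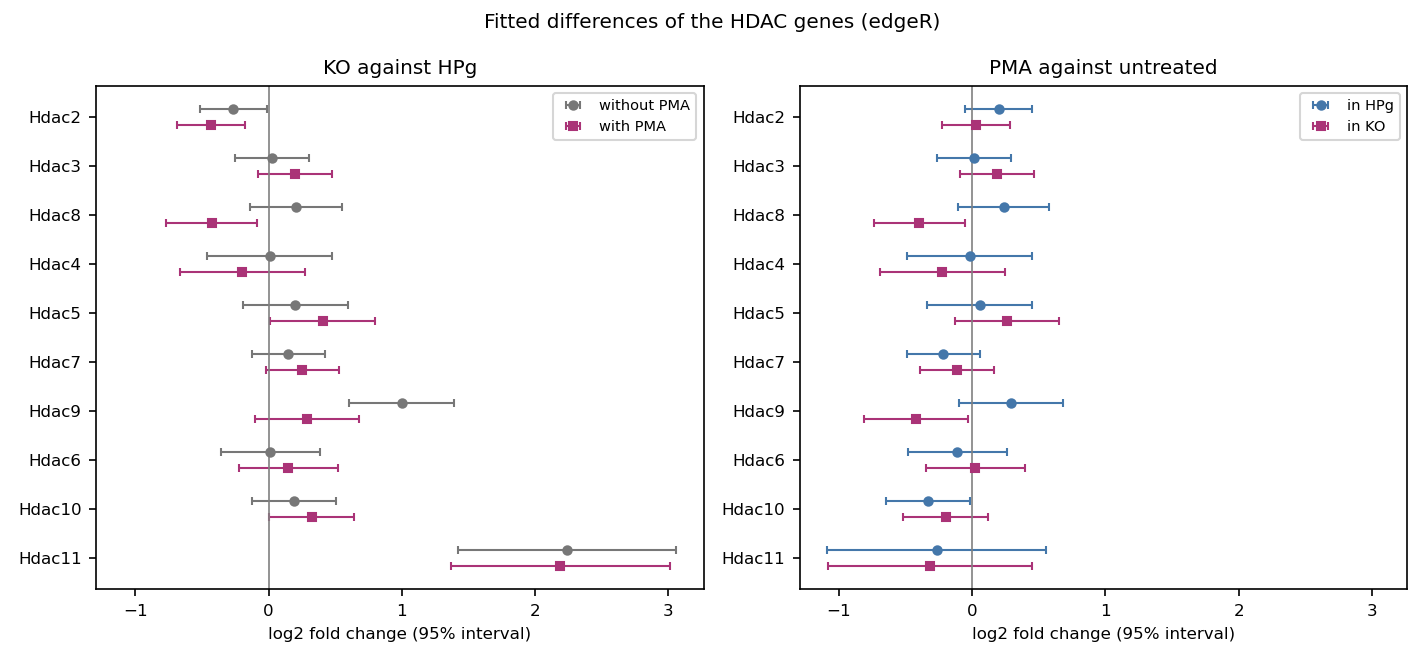
Fitted log2 fold changes (points) with 95% intervals (bars) for the 10 HDAC genes, KO against HPg on the left without and with PMA, and PMA against untreated on the right in each line. Hdac11 lies at 2.24 and 2.19 between the lines, and the other members lie within 1.00 of 0 in all 4 comparisons.

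Among class I genes, Hdac2, a catalytic subunit of the Sin3, NuRD and CoREST complexes, had lower values in the KO libraries. With PMA it read 173.2, 147.7 and 150.1 CPM in HPg (157.0 ± 14.1) and 109.8, 108.5 and 130.3 CPM in KO (116.2 ± 12.2). The groups did not overlap, and the log2 difference was -0.43 (SE 0.12, 95% interval -0.69 to -0.18). Its adjusted p was 0.0708 by edgeR, 0.0101 with the replicate block and 0.0168 by DESeq2, so the call rests on the method. Without PMA the means were 136.8 ± 11.1 CPM in HPg and 113.9 ± 2.29 in KO, a log2 difference of -0.26 without overlap.

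Hdac8, which deacetylates the cohesin subunit SMC3, stood in KO PMA below every library of the other line with PMA. It read 49.9, 36.2 and 39.5 CPM in HPg PMA (41.9 ± 7.12) and 28.6, 30.7 and 34.2 CPM in KO PMA (31.1 ± 2.83). The log2 difference was -0.43 (SE 0.16), with adjusted p = 0.174, or 0.0459 with the replicate block. Untreated, the difference had the other sign, with 35.5 ± 5.32 CPM in HPg and 41.0 ± 5.55 in KO, and these groups overlapped. The PMA difference in KO was -0.40 without overlap (adjusted p = 0.224), against 0.24 in HPg (adjusted p = 0.495). The difference between these responses was -0.63 (SE 0.22, unadjusted p = 0.0146, adjusted p = 1). Hdac3 showed no call in any comparison. Its means were 125.7 ± 4.70 CPM in HPg, 126.7 ± 16.2 in HPg PMA, 127.9 ± 15.7 in KO and 145.4 ± 11.5 in KO PMA, and the interval of the line difference with PMA ran from -0.08 to 0.48 on the log2 scale.

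The remaining class IIa members did not pass the test in any comparison. Hdac5, a signal-responsive repressor of MEF2 targets, read 147.5, 163.6 and 146.8 CPM in HPg PMA (152.6 ± 9.52) and 264.6, 176.4 and 166.1 CPM in KO PMA (202.4 ± 54.1). The groups did not overlap, with a log2 difference of 0.41 (adjusted p = 0.255), which was 0.16 without KO PMA library 1. Library 1 was also the highest of the untreated KO libraries, at 205.6 CPM against 146.8 and 153.7. Hdac7, known for its role in developing vessels and thymocytes, was 108.3 ± 8.22 CPM in HPg, 93.1 ± 3.93 in HPg PMA, 120.0 ± 17.1 in KO and 110.9 ± 11.5 in KO PMA. Its lines with PMA did not overlap (log2 difference 0.25, adjusted p = 0.311). Hdac4, a regulator of cartilage growth, varied widely within groups: its untreated HPg libraries read 100.3, 155.0 and 129.0 CPM and its untreated KO libraries 102.5, 166.6 and 117.5. Library 2 was the highest in each of the 4 groups, and the line difference with PMA was -0.20 (95% interval -0.67 to 0.27, adjusted p = 0.686). Of Hdac4's exon bases, 3536 of 15813 overlap the antisense gene Gm26720, which was not analysed here.

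In class IIb, Hdac10 read 25.2, 25.0 and 27.2 CPM in HPg (25.8 ± 1.24) and 19.9, 20.3 and 21.4 CPM in HPg PMA (20.5 ± 0.768). The treated libraries were all lower, by a log2 difference of -0.33 (SE 0.15), with adjusted p = 0.263. In KO it was 29.4 ± 4.68 CPM without and 25.6 ± 4.60 with PMA, and these groups overlapped (log2 difference -0.20, adjusted p = 0.597). Between the lines with PMA the difference was 0.32 without overlap (adjusted p = 0.264). Hdac6 stayed between 20.7 and 32.2 CPM in all 12 libraries. Its line difference with PMA was 0.15 (95% interval -0.22 to 0.52, adjusted p = 0.706).

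No HDAC gene passed the threshold for PMA in either line by edgeR, beside 3.45% of all genes in HPg and 4.44% in KO. At an unadjusted p under 0.05 there was 1 member in HPg, Hdac10, and 2 in KO, Hdac8 and Hdac9, beside 17.4% and 15.9% of all genes. DESeq2 called 0 members in both lines, and so did the replicate block, beside 14.8% of all genes in HPg and 13.4% in KO. Treated and untreated libraries did not overlap for 2 of 10 members in HPg, beside 22.7% of all genes, and for 3 of 10 in KO, beside 21.8%. The family's median log2 difference was -0.00 in HPg and -0.16 in KO, beside -0.02 over all genes in each. Scaling by library size alone moved the median of all genes in KO by -0.13, and there the KO values of Hdac2 and Hdac6 changed sign. For the difference between the lines' responses, edgeR called 0 of 16630 genes, with 328 (1.97%) at an unadjusted p under 0.05, and DESeq2 called 1.

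The partners that carry class I enzymes were read from lists of subunits. None of the 5 NCoR and SMRT genes, which anchor Hdac3, passed the threshold in any comparison, by edgeR with or without the block or by DESeq2. At an unadjusted p under 0.05 there were 0 between the lines with PMA, 0 for PMA in HPg and 1 for PMA in KO. Over all genes these shares were 18.4%, 17.4% and 15.9%, and the shares called by edgeR were 2.47%, 3.45% and 4.44%. The list's median log2 difference between the treated lines was -0.05, beside 0.01 over all genes. Of 12 NuRD genes, which join Hdac2 to a chromatin remodeller, 1 was called higher in KO with PMA and 0 lower, beside 2.47% of all genes. It was Chd3, a remodelling ATPase, at 18.1, 21.9 and 19.5 CPM in HPg PMA (19.8 ± 1.92) and 69.8, 73.7 and 74.4 CPM in KO PMA (72.6 ± 2.48). These libraries lay far apart, with a log2 difference of 1.88 (SE 0.11, adjusted p = 4.55e-06), and the untreated difference was 1.89. With the block, 2 of the 12 were called higher, as Mta1, another NuRD subunit, joined (log2 difference 0.40, adjusted p = 0.0956, or 0.0100 with the block). That count stands beside 18.6% of all genes called with the block. The median over the NuRD list was -0.06.

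Of 14 Sin3 genes, 1 was called higher and 0 lower in KO with PMA, beside 2.47% of all genes. This was Sap18, a small Sin3-associated protein also found in splicing complexes, at 105.6 ± 1.53 CPM in HPg PMA and 150.8 to 159.8 CPM in KO PMA libraries 2 and 3, with library 1 at 148.5. The log2 difference was 0.54 (adjusted p = 0.0296), and leaving out 5 of 6 libraries in turn ended the call, with adjusted p between 0.0492 and 0.134 over the 6. With the block 2 Sin3 genes were called lower as well, Sap30 and Sinhcaf, beside 18.6% of all genes. DESeq2 called Sap18 higher and Sinhcaf lower, among its 1134 called genes, and the list's median was -0.07. Of 10 CoREST and MiDAC genes, 0 were called between the lines with PMA by edgeR or DESeq2, with 3 at an unadjusted p under 0.05, beside 18.4% of all genes. With the block Rcor2 was called higher and Phf21a lower, beside 18.6% of all genes, and the list's median was 0.02.

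Mideas, a scaffold of the mitotic deacetylase complex MiDAC, rose with PMA in both lines. It read 67.6, 96.7 and 69.0 CPM in HPg and 170.4, 201.7 and 161.9 CPM in HPg PMA, a log2 rise of 1.20 (SE 0.20, adjusted p = 0.00617). In KO it went from 73.0, 109.3 and 72.3 CPM to 204.5, 244.1 and 181.9 CPM, a log2 rise of 1.31 (adjusted p = 0.0026). Both calls held with each library left out. It was the 1 gene of its list called by edgeR in each line, with 0 lower, beside 3.45% of all genes in HPg and 4.44% in KO. With the block 2 were called higher and 1 lower in HPg and 2 higher and 2 lower in KO, beside 14.8% and 13.4% of all genes, while the list's median was -0.02 in HPg and -0.06 in KO, beside -0.02 over all genes in each. Mta1, of the NuRD list, was called lower with PMA in HPg (log2 -0.48, adjusted p = 0.0476), a call that ended with any of the 6 libraries left out (adjusted p 0.0589 to 0.179).

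The genes around class IIa signalling held further PMA calls. Among 20 kinases and 14-3-3 proteins, 1 was called higher in HPg and 2 in KO, with 0 lower, beside 3.45% and 4.44% of all genes. With the block 5 and 3 were called higher, beside 14.8% and 13.4% of all genes called in either direction. The list's median log2 difference was 0.15 in HPg and 0.12 in KO. Ywhaz, a 14-3-3 protein, averaged 338.2 ± 20.4 CPM in HPg and 490.0 ± 24.2 in HPg PMA, a log2 rise of 0.53 (adjusted p = 0.0398), and it rose by 0.51 in KO (adjusted p = 0.0417). Sik1, a salt-inducible kinase that phosphorylates class IIa enzymes, went from 31.9, 41.5 and 35.1 CPM to 58.7, 72.1 and 71.0 CPM in KO, a log2 rise of 0.90 (adjusted p = 0.0250). In HPg the Sik1 difference was 0.74 (adjusted p = 0.0661, or 0.000528 with the block). Of the MEF2 factors 3 of 4 were tested, and 1 was called higher with PMA in each line by edgeR, beside 3.45% and 4.44% of all genes. With the block Mef2a joined in HPg (log2 0.48, adjusted p = 0.237, or 0.0130 with the block), beside 14.8% of all genes. The gene called in both lines was Mef2d, with a log2 rise of 0.55 in HPg (adjusted p = 0.0413) and 0.61 in KO (adjusted p = 0.0224). The HPg calls for Ywhaz and Mef2d ended with any of the 6 libraries left out (adjusted p 0.0673 to 0.132 and 0.0600 to 0.136), and in KO the Ywhaz call held in 1 of 6, the Mef2d call in 3 of 6 and the Sik1 call in 2 of 6. RNA levels do not show where these proteins are or how they are phosphorylated.

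By edgeR without the block, the other deacetylases and the opposing enzymes held 1 called gene. Among 7 sirtuins, which are NAD-dependent deacetylases, Sirt1 was called higher with PMA, from 61.1 ± 6.23 to 95.2 ± 6.99 CPM in HPg (log2 0.64, adjusted p = 0.0312) and with a log2 rise of 0.60 in KO (adjusted p = 0.0349). This 1 of 7 stands beside 3.45% of all genes called in HPg and 4.44% in KO. Both Sirt1 calls ended with any library left out (adjusted p 0.0593 to 0.124 and 0.0504 to 0.159). None of the 7 was called between the lines with PMA by edgeR or DESeq2, with 3 at an unadjusted p under 0.05, beside 18.4% of all genes. With the block Sirt5 was called higher and Sirt1 lower, beside 18.6% of all genes. It also called Sirt5 lower with PMA in HPg, beside 14.8% of all genes. Of 12 histone acetyltransferases 0 were called in any comparison by edgeR without the block or by DESeq2. At an unadjusted p under 0.05 there were 3 between the treated lines, 2 for PMA in HPg and 1 for PMA in KO, beside 18.4%, 17.4% and 15.9% of all genes. With the block 4 were called lower in KO with PMA, Kat2b, Kat6a, Hat1 and Ncoa3, beside 18.6% of all genes called in either direction. The block also called Ncoa1 higher between the untreated lines, beside 12.5% of all genes, and Kat6b lower with PMA in KO, beside 13.4%. Between the treated lines the list's median was -0.00.

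Among the genes around Hdac11, those next to it on 1 side and farthest on the other were also higher in KO. Of the 10 protein-coding genes nearest Hdac11 on chromosome 6, 5 on each side, 9 were tested. With PMA 2 were called higher in KO and 0 lower, beside 2.47% of all genes called in either direction. The block also called 2 higher and 0 lower with PMA, beside 18.6% of all genes. Without PMA edgeR called 0, beside 1.32%, and the block 2 higher and 1 lower, beside 12.5%. Fbln2, an extracellular matrix fibulin next to Hdac11, read 0.925, 1.65 and 1.27 CPM in HPg PMA and 3.24, 5.72 and 4.08 CPM in KO PMA. These did not overlap, and the log2 difference was 1.76 (SE 0.345, adjusted p = 0.0233). Klf15, a zinc finger factor at the fifth place on the other side, read 0.660, 1.40 and 1.11 CPM in HPg PMA and 3.08, 2.98 and 3.22 CPM in KO PMA, a log2 difference of 1.55 (SE 0.345, adjusted p = 0.0387). Both calls were kept without HPg PMA library 2 and lost without any of the other 5 libraries (adjusted p up to 0.124 and 0.170). The genes between did not pass: Nup210, a nuclear pore protein next to Hdac11, had a log2 difference of -0.04, Iqsec1, an exchange factor for small GTPases, 0.16, and Slc41a3 -0.23. Aldh1l1, an enzyme of folate metabolism, stood at 1.14 with an SE of 0.643 (adjusted p = 0.371). On the Fbln2 side, Chchd4 had -0.40, Tmem43 0.15 and Xpc -0.04, and Wnt7a had too few counts to test. Slc41a3 was also called lower with PMA in HPg (log2 -0.73, adjusted p = 0.0238), a call kept in 2 of 6 cases with 1 library left out (adjusted p up to 0.108).

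**Figure D4:**
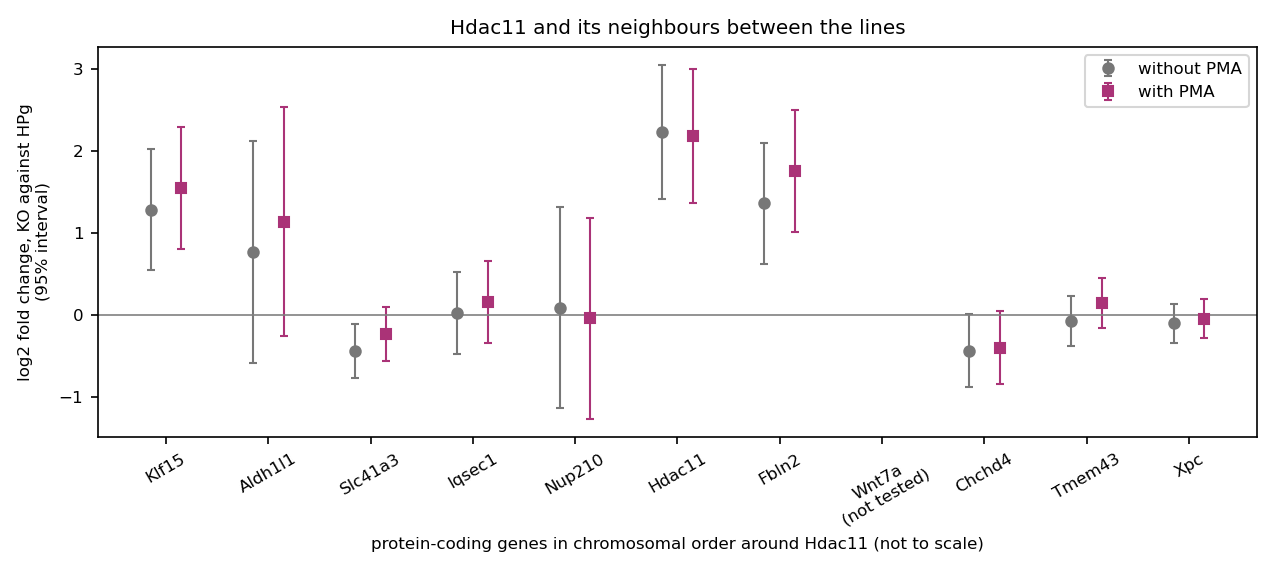
Log2 fold change of KO against HPg with 95% intervals for Hdac11 and its 10 nearest protein-coding genes in chromosomal order (not to scale), without PMA (grey circles) and with PMA (purple squares). Hdac11, Fbln2 and Klf15 lie above 1 in both conditions, while of the 4 genes between Klf15 and Hdac11, Nup210, Iqsec1 and Slc41a3 lie close to 0 or below it and Aldh1l1 lies above 0 with a wide interval.

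The genes whose log2 CPM followed Hdac11 most closely over the 12 libraries were Ckb, a creatine kinase, and Pdlim2, a PDZ and LIM domain protein (Pearson r = 0.972 each of 13735 genes compared), then Emilin2, an elastin-interface glycoprotein, with 0.969, Cdc42ep5, an effector of Cdc42, with 0.965 and Smarca1, an ISWI chromatin remodeller, with 0.964. These values describe 12 libraries that split by line, 6 and 6, and carry no test. Smarca1 averaged 0.451 CPM in HPg PMA and 2.01 in KO PMA, and Emilin2 4.52 and 12.8 CPM.

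Markers of other cell types moved in part with Hdac11, which is abundant in nervous tissue. Of 10 neural markers 7 were tested. Without PMA 2 were called higher in KO by edgeR, Gap43 and Ncam1, beside 1.32% of all genes. With PMA 1 was, Gap43 (log2 difference 1.22, adjusted p = 0.0375), beside 2.47% of all genes. Marker calls were not checked with libraries left out. DESeq2 called 2 without and 3 with PMA, and the block 3 in each case, Gap43, Ncam1 and Mbp, beside 12.5% and 18.6% of all genes called with the block. Of the 7, 6 had a log2 difference above 0 in each case, with a median of 0.77 without and 0.99 with PMA, beside 0.01 over all genes. Gap43, a growth cone protein, lay between 0.261 and 0.539 CPM in the HPg libraries and between 0.814 and 1.18 CPM in the KO libraries. The summed neural level overlapped between the lines, at 227 to 298 CPM in HPg PMA and 211 to 281 in KO PMA, but most of that sum was Map2, while Tubb3 had 0 counts in every library. Also called higher in KO with PMA were 1 of 4 tested muscle markers (Des) and 1 of 4 tested endothelial markers (Vwf). These calls stand beside 2.47% of all genes. The endothelial list went both ways, with 2 of 4 above 0, a median log2 difference of 0.09 and a lowest value of -0.60. All 4 muscle markers lay above 0. Of the blood and epithelial markers 0 were called. At an unadjusted p under 0.05 there were 1 and 0, beside 18.4% of all genes. DESeq2 called 0, and the block 0 and 1 (Krt8), beside 18.6% of all genes with the block. The part of these cells' RNA in the Hdac11 difference was not tested.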

How the data were processed

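RNA-seq libraries of 2 MEF-derived lines, with and without PMA, were read from the raw counts per gene deposited by the authors, with no normalization of their own. Per the labels' protocols, ribosomal RNA was depleted and libraries were directional and paired-end. Per the submitters' processing notes, cutadapt 1.11, STAR 2.5.0a, featureCounts 1.4.6-p3 and the build mm9 were used; the gene annotation and the strand setting are not stated there. Gene symbols, exon lengths and neighbours came from GENCODE M21, which gave 32620 of 37310 genes a symbol, and promoters from RefSeq.

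The members and all lists were chosen with earlier results of these data known. Counts (111458145 to 159929347 per library) were tested with edgeR 4.0.16 (R 4.3.3; filterByExpr, TMM, quasi-likelihood F-test, 1 coefficient per group over 12 libraries), with Benjamini-Hochberg adjustment over 16630 genes at 0.05. The code was tested on simulated data. With 3 libraries against 3, an exact permutation test of 1 gene cannot go below p = 0.1, so none was used. Named were the 10 members, list genes that passed (otherwise up to 4 with the smallest p), the 10 neighbours, the 5 genes most like Hdac11 and Cbx3. Alternatives were DESeq2 1.42.0, other scalings and filters, fits of 2 groups, each library left out, and replicate number as a block. Library deviations from the group means correlated between 0.309 and 0.786 over the 18 same-numbered pairs and between -0.715 and 0.338 over the 36 others. The main fit did not pair the libraries, and only the block took same-numbered libraries as paired. What a number shares is not given. Libraries of 1 group differed beyond sampling noise in all 12 pairs.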

Additional observations from a re-analysis of the deposited data

How the results depend on the processing

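Hdac11 stayed higher in KO under every alternative that could fit it, but it had under 1 CPM on average and so was not in the fit limited to genes of at least 1 CPM. Leaving out each library in turn gave it log2 differences of 2.04 to 2.37 without PMA and 1.85 to 2.61 with PMA, and ended the call with PMA in 3 of 6 cases. The replicate block, supported by the correlations of same-numbered libraries above, kept Hdac11 with PMA (adjusted p = 0.00144). The number of genes called depended on the method. Without PMA the lines differed in 219 genes by edgeR, 749 by DESeq2, 2083 with the replicate block, 12 with only the 2 groups fitted and 46 to 329 with 1 library left out. With PMA these were 411, 1134 by DESeq2, 3090 with the block and 60 to 573. PMA in HPg gave 574, 1145 by DESeq2, 2462 with the block, 222 with only the 2 groups and 244 to 332. PMA in KO gave 739, 1249 by DESeq2, 2221 with the block and 295 to 604. The difference between responses gave 0, 1 by DESeq2, 0 with the block and 0 to 1.

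Small values changed sign, and the cause was not tested. With library size alone, PMA in KO moved to -0.0982 for Hdac2 and -0.102 for Hdac6 and PMA in HPg to -0.0313 for Hdac3. With upper-quartile factors these were -0.0217, -0.0271 and -0.0654, Hdac5 with PMA in HPg was -0.0208, and between the lines with PMA Nup210 was 0.0307 and Xpc 0.0243. With the replicate block Hdac4 with PMA in HPg was 0.00906 and Nup210 between the treated lines 0.163. With 1 library left out, PMA in HPg ranged from -0.684 to 0.0709 for Hdac11, -0.0893 to 0.0932 for Hdac3 and -0.165 to 0.142 for Hdac4. PMA in KO ranged from -0.0544 to 0.0761 for Hdac2, -0.451 to 0.0125 for Hdac4, -0.146 to 0.173 for Hdac6 and -0.193 to 0.0156 for Hdac7. The treated lines ranged from -0.0299 to 0.239 for Hdac6, -0.449 to 0.479 for Nup210 and -0.0416 to 0.270 for Iqsec1, and the difference between responses for Hdac11 from -0.379 to 0.376. Between the untreated lines the range was -0.0807 to 0.0981 for Hdac3, -0.23 to 0.168 for Hdac4 and -0.138 to 0.141 for Hdac6. Among the neighbours there it was -0.328 to 0.639 for Nup210, -0.17 to 0.237 for Iqsec1 and -0.162 to 0.000458 for Tmem43.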
